A study of Mus musculus with 14 samples.

Results

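The question was whether loss of Clpx changed the transcripts of ovulated mouse oocytes in the same way as those of germinal vesicle oocytes. All 14 libraries of the series were used, in 4 groups: 4 WT and 4 CKO libraries at the germinal vesicle (GV) stage, and 3 WT and 3 CKO libraries at the ovulated stage. WT oocytes came from mice labelled Clpxfl/fl, and CKO oocytes from mice labelled Clpxfl/fl; Zp3-Cre, so both genotypes carry the floxed allele and the CKO alone carries the transgene. These are the genotype labels; the titles of the ovulated WT libraries read Clpxfl/f. Zp3-Cre is driven by the promoter of a zona pellucida gene that is active in growing oocytes, and the surrounding follicle cells keep Clpx. The age of the mice is not in the labels, nor is the number of oocytes or animals behind a library, although the library source is given as single cell. P-values therefore measure the spread between libraries, which may be technical.

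CLPX is the ATP-driven unfoldase that feeds proteins to the peptidase CLPP in the mitochondrial matrix, and on its own it also acts on an enzyme of heme synthesis. At the GV stage the oocyte nucleus is intact, meiosis is paused in prophase, and a large store of stable mRNA has been laid down. On maturation to the ovulated egg, transcription is silent, many stored mRNAs lose their poly(A) tails and are degraded, and others are kept or gain a longer tail. Cytoplasmic polyadenylation elements, short U-rich motifs near the end of the 3′ UTR, take part in that choice.

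The quantity reported is a stage difference, on the log2 scale: the CKO over WT difference in ovulated oocytes minus that in GV oocytes. A value of 0 means an equal fold at both stages, and a value above 0 means that the CKO stood relatively higher after ovulation. Shifts of a whole stage, or of 1 gene at 1 stage, cancel in it where WT and CKO share them. Levels are counts after scaling between libraries, in CPM (per 1e+06 counts).

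Deposited totals ran from 25086506 to 28471453 estimated reads per library, and 16417 genes were listed in both stage tables. The summed level of 12 oocyte markers was 32500 to 69200 CPM in GV and 20000 to 30400 CPM in ovulated libraries. Markers of granulosa and cumulus cells summed to 460 to 749 CPM in GV libraries, 436 to 1130 in ovulated WT and 610 to 915 in ovulated CKO, most of it from Serpine2. 17 of the 24 markers on that list were in both tables. Theca, stromal, endothelial and blood markers summed to 22.7 to 47.4 CPM in GV libraries and 53.7 to 122 CPM in ovulated ones, with 12 of 20 in both tables. Most of that sum came from Pecam1, with 19.4 to 43.8 CPM in GV and 43.6 to 100 CPM in ovulated libraries. Ovulated CKO replicate 3 and ovulated WT replicate 1 stood apart from the other libraries of their groups in several gene lists given further on. Results that rest on replicate 3 are given with and without it.

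The targeted gene was low in every CKO library of both stages. Clpx (gene ID 270166, chromosome 9, 65294251 to 65330658, mm10) had 58.1 CPM in GV WT replicate 1, 39.6 to 40 CPM in the other 3 GV WT libraries, and 0.676, 0.94, 1.36 and 1.44 CPM in GV CKO. In ovulated oocytes it stood at 19.1, 18.5 and 17.0 CPM in WT and at 0.465, 0.575 and 0.269 in CKO. Every CKO library lay below every WT library of its stage. The log2 differences were −5.33 (SE 0.32) in GV and −5.36 (SE 0.38) in ovulated oocytes. The stage difference was −0.03 (SE 0.34, 95% interval −0.75 to 0.69, edgeR adjusted p = 0.991). Each SE was taken as the log2 value over the square root of the test's F statistic, which is unreliable for values near 0. Here it lies below the SE of the ovulated effect alone, so the interval is too narrow. The sign of the stage difference turned with the scaling, and even this interval holds changes of either direction.

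Mt1, which encodes a metal-binding metallothionein, was the other named gene with a large difference at both stages. It stood at 0.724 to 2.67 CPM in GV WT and 87.9 to 130 CPM in GV CKO. Ovulated WT libraries had 0.354, 0.263 and 2.33 CPM, and ovulated CKO libraries had 85.5, 51.1 and 23.3 CPM. The groups did not overlap at either stage. Its log2 difference was 5.93 in GV and 5.76 in ovulated oocytes, with a stage difference of −0.16 (SE 0.84, 95% interval −1.93 to 1.61, edgeR adjusted p = 0.980). That interval is wide, and may still be too narrow, since its SE was taken in the same way from a value near 0. Leaving out ovulated WT replicate 3, the one WT library above 1 CPM at that stage, gave 1.48.

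Clpp, the peptidase partner of CLPX, stood at 8.69 to 14.5 CPM in GV WT and 8.21 to 14.5 CPM in GV CKO, with wide overlap. In ovulated oocytes it had 0.106, 0.292 and 0.338 CPM in WT against 1.43, 0.795 and 0.101 CPM in CKO. CKO replicates 1 and 2 lay above the WT libraries and replicate 3 just below them. The stage difference was 1.56 (SE 0.77, edgeR adjusted p = 0.563) and did not pass. Mt2, the neighbouring metallothionein gene, stayed below 1 CPM in all 14 libraries and had a stage difference of 1.06 (SE 1.23, edgeR adjusted p = 0.881).

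**Figure D1:**
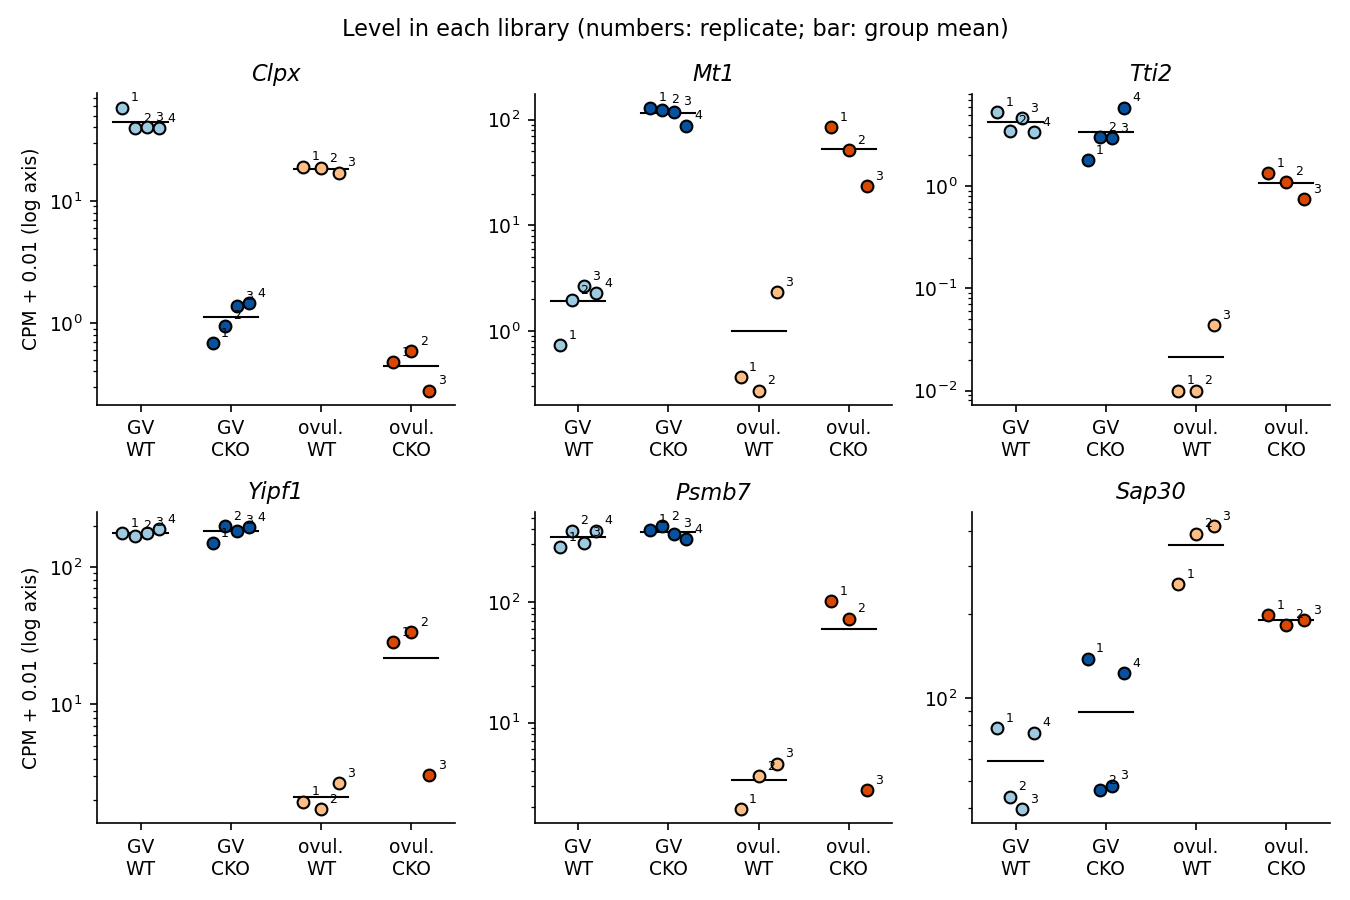
Level of 6 genes in each library, as CPM + 0.01 on log axes, with the 2 GV groups on the left and the 2 ovulated groups on the right, WT before CKO, the replicate number beside each point and a bar at the group mean. Clpx and Mt1 differed between genotypes at both stages, Tti2 differed after ovulation and overlapped at the GV stage, and for Yipf1 and Psmb7 ovulated CKO replicate 3 lay near the WT libraries while replicates 1 and 2 lay far above them.

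Across all genes, 1 of 13158 passed the edgeR test of the stage difference at an adjusted p of 0.05 (0.0076%), and it was higher after ovulation. At an unadjusted p below 0.05 there were 1205 genes (9.16%), 949 higher (7.21%) and 256 lower (1.95%). In the same fit the CKO over WT difference passed for 3 genes in GV oocytes (0.0228%: Clpx, Mt1 and the predicted gene Gm20594) and for 64 in ovulated oocytes (0.486%), 61 of them higher in CKO (0.464%) and 3 lower (0.0228%: Clpx, Teddm1b and Trpm6). This fit pools the spread of the 4 groups, which was not equal: the median SD of log2 CPM within a group was 0.333 in GV WT, 0.418 in GV CKO, 0.516 in ovulated WT and 0.416 in ovulated CKO. The ovulated effect was also the more widely spread, with an interquartile width of 0.792 against 0.442 in GV oocytes. Both medians lay near 0 (0.03 at each stage).

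The per-gene effects at the 2 stages, which share no library, had a Pearson r of 0.151 and a Spearman rho of 0.158 across the 13158 genes. Genes are not independent replicates, so these values describe the libraries only. Both effects were above 0 for 3995 genes and both below 0 for 3354. A positive GV effect with a negative ovulated effect was found for 2990 genes, and the reverse for 2819. The median stage difference was 0.00425 with the scaling used here. Scaling by library totals alone moved it to 0.25, so list medians are read relative to all genes where that scaling is named.

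**Figure D2:**
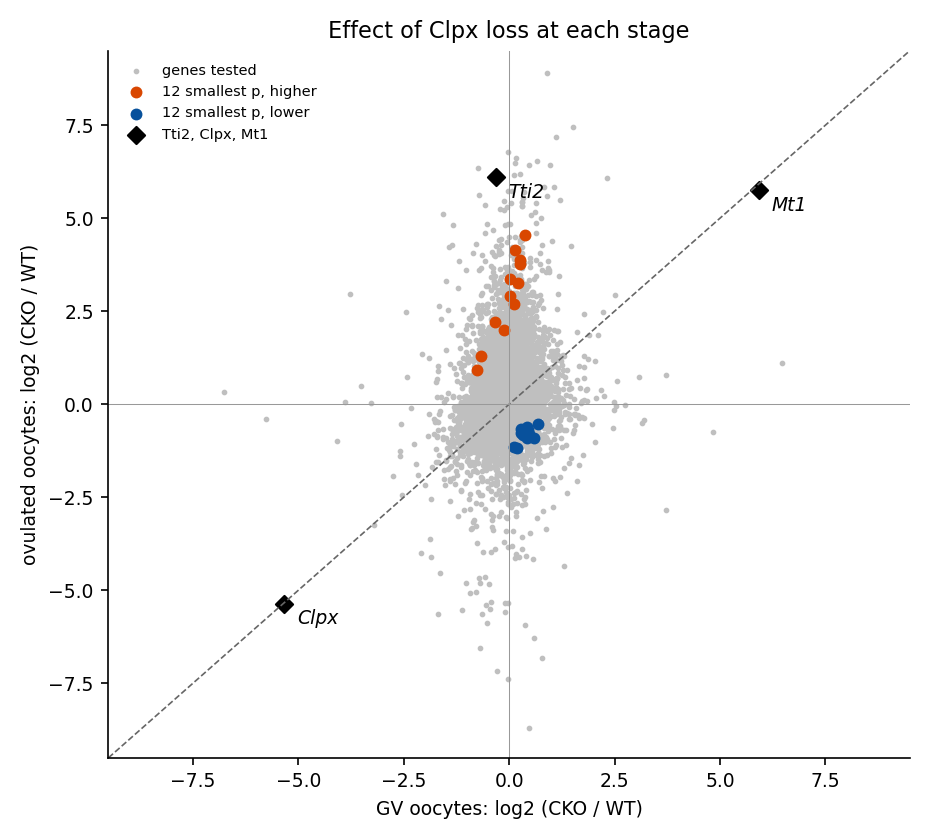
CKO over WT difference of each of the 13158 genes tested, GV oocytes on the x axis and ovulated oocytes on the y axis, both log2, with the line of equal effect dashed. Clpx (−5.33 and −5.36) and Mt1 (5.93 and 5.76) lie near the dashed line, while Tti2 (−0.31 and 6.10) and the 12 genes of smallest p in each direction (orange, higher; blue, lower) lie off it.

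Tti2 (gene ID 234138, chromosome 8, 31150316 to 31164703) was the gene that passed. It encodes a subunit of the TTT complex, a cochaperone with which phosphatidylinositol 3-kinase-related kinases such as mTOR and ATM reach their mature form. In GV WT libraries it stood at 5.26, 3.49, 4.64 and 3.37 CPM, and in GV CKO at 1.77, 3.02, 2.94 and 5.86 CPM, ranges that overlap. In ovulated WT libraries it had 0, 0 and 0.0338 CPM, and in ovulated CKO 1.33, 1.1 and 0.74 CPM. Every ovulated CKO library lay above every ovulated WT library, replicate 3 included, and below every GV library. Counts of the 3 ovulated WT libraries came to 1 in all, against 105 in the 3 CKO libraries. The ratio of their scaled levels was 98.2, with an exact 95% interval of 17.3 to 3916 that covers counting error only.

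The fitted stage difference of Tti2 was 6.41 (SE 0.90, 95% interval 4.50 to 8.32, edgeR adjusted p = 0.0254), from a GV effect of −0.31 and an ovulated effect of 6.10. With so few WT counts, the fitted size depends on the prior count and is no bound. Its adjusted p passed in 10 of 25 alternatives and ranged from 0.00107 to 0.887, with a positive value in each (1.01 to 8.16). It did not pass with the replicate number as a block (6.48, edgeR adjusted p = 0.335), in limma-voom without or with group weights (0.241 and 0.887), in limma on log2 FPKM (0.643), or when any 1 of 11 of the 14 libraries was left out (edgeR adjusted p from 0.0515 to 0.115). It did pass without GV CKO replicate 4, ovulated CKO replicate 3 or ovulated WT replicate 3. On this build Tti2 overlaps Mak16 on the other strand over 5236 bases (chromosome 8, 31159468 to 31164703). The library method does not mark strand, so shared reads cannot be assigned. Mak16, a ribosome biogenesis gene, stayed between 0 and 2.43 CPM in the 14 libraries and had a stage difference of −1.13 (SE 1.22, edgeR adjusted p = 0.864).

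Tti2 belongs to a list of 14 TTT and kinase genes, of which it was the 1 call and the 1 gene with an unadjusted p below 0.05. The list's median stage difference was 0.16, against 0.00425 for all genes, and 7 of its 14 members lay above 0. Tti1, its partner subunit, had 29.9 to 38.5 CPM in GV WT, 23.6 to 34.5 in GV CKO, 26.8 to 34.4 in ovulated WT and 29.2 to 52.7 in ovulated CKO. It had a stage difference of 0.58 (SE 0.34, edgeR adjusted p = 0.658). Telo2, the third subunit, stayed at or below 1.36 CPM in all libraries, with a stage difference of 1.75 (SE 1.45, edgeR adjusted p = 0.795).

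The 4 genes next in order of p, chosen after their values were seen, were low-level genes with the same arrangement of groups. They are Dcpp3, Tmsb15b2, Trpv2 (a cation channel) and Nek8 (a kinase of the primary cilium), each with an edgeR adjusted p of 0.169. Trpv2 had 9.80 to 13.0 CPM in GV WT and 7.29 to 11.8 in GV CKO, then 0.106, 0 and 0.203 in ovulated WT against 2.20, 3.97 and 0.538 in ovulated CKO. Dcpp3 had 9.84 to 13.3 CPM in GV WT, 7.03 to 13.6 in GV CKO, 0.106, 0.0292 and 0.0338 in ovulated WT, and 3.72, 2.8 and 0.236 in ovulated CKO. Ovulated CKO libraries lay above ovulated WT libraries for both genes, and replicate 3 was the lowest of the CKO libraries.

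Among genes with a mean of at least 10 CPM none passed with 14 libraries, and the 12 smallest p-values in each direction describe the pattern. The 12 on the higher side had stage differences of 1.68 to 4.18 (edgeR adjusted p from 0.221 to 0.280), with GV effects between −0.76 and 0.37. For 9 of these 12 the ovulated CKO and WT libraries did not overlap, where 5.65% of all genes had that arrangement. The p-values that chose them used the same libraries, so this count describes the genes and tests nothing. CKO replicates 1 and 2 lay above the WT range for all 12. Replicate 3 was the lowest CKO library for all 12 and lay within or below the WT range for 3.

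Yipf1 (chromosome 4, 107314223 to 107359823), which encodes a Golgi membrane protein, had 169 to 188 CPM in GV WT and 150 to 198 CPM in GV CKO. It had 1.95, 1.72 and 2.67 CPM in ovulated WT and 28.5, 33.6 and 3.06 CPM in ovulated CKO. Genotypes overlapped before ovulation and separated after it, with replicate 3 close to WT. Its stage difference was 3.33 (SE 0.69, edgeR adjusted p = 0.256), and 3.85 without replicate 3.

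Psmb7 encodes a catalytic subunit of the proteasome. It had 284 to 391 CPM in GV WT, 334 to 426 in GV CKO, 1.91, 3.59 and 4.56 in ovulated WT, and 102, 72.9 and 2.76 in ovulated CKO. Replicates 1 and 2 lay above WT and replicate 3 lay inside the WT range. The stage difference was 3.99 (SE 0.93, edgeR adjusted p = 0.280).

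Tsacc, which encodes a cochaperone of a testis kinase, had 17.2 to 20.3 CPM in GV WT, 14.9 to 29.0 in GV CKO, 0.212, 0.175 and 0.237 in ovulated WT, and 6.14, 2.44 and 0.707 in ovulated CKO. Here replicate 3 also lay above all WT libraries. Its stage difference was 3.62 (SE 0.73, edgeR adjusted p = 0.221). Slirp, which encodes a protein that binds mitochondrial mRNA, had ovulated levels of 0.815, 1.43 and 1.25 CPM in WT and 34.3, 11.6 and 2.25 CPM in CKO, with a stage difference of 3.51 (SE 0.82). Mrpl28, a mitochondrial ribosomal protein gene, had ovulated levels of 0.921, 1.63 and 2.5 CPM in WT and 22, 13.9 and 2.12 CPM in CKO, with a stage difference of 2.89 (SE 0.70). For Mrpl28 replicate 3 fell among the WT libraries, and for Slirp it did not.

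The other genes of the higher side included Tmem29, Znrd1 (a subunit of RNA polymerase I), Slco4a1 (an organic anion transporter), Xrcc3 (a gene of DNA repair by homologous recombination), Ppie (a cyclophilin of the spliceosome) and Pradc1. Znrd1 had the largest stage difference of the 12, at 4.18 (SE 0.96), with 28 to 40.6 CPM in GV WT and 0.0292 to 0.642 in ovulated WT. Slco4a1 and Xrcc3 had the lowest GV effects of the 12 (−0.76 and −0.66) and also the smallest ovulated effects (0.91 and 1.30).

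The 12 genes on the lower side had smaller stage differences, between −1.49 and −0.96, with edgeR adjusted p from 0.280 to 0.406. Their GV effects were all above 0 (0.12 to 0.69) and their ovulated effects all below 0 (−1.18 to −0.52), a direction that the choice of members favours. Ovulated libraries did not overlap for 7 of the 12, where 4.92% of all genes had CKO libraries wholly below WT. CKO replicate 3 was the lowest CKO library for 1 of the 12.

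Sap30, a subunit of the SIN3 histone deacetylase complex, had 77.7, 44.0, 39.7 and 74.9 CPM in GV WT and 139, 46.6, 48.2 and 123 in GV CKO. It had 257, 392 and 417 CPM in ovulated WT and 199, 184 and 190 in ovulated CKO. Every ovulated library lay above every GV library, and each ovulated CKO library lay below each ovulated WT one. The stage difference was −1.49 (SE 0.53, edgeR adjusted p = 0.389).

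Bcl7c, a subunit of the BAF chromatin remodelling complex, had 13.9 to 20.4 CPM in GV WT, 13.6 to 27.4 in GV CKO, 35.2, 99.5 and 102 in ovulated WT, and 29.5, 38.7 and 35.9 in ovulated CKO. The ovulated ranges overlapped through WT replicate 1. Bcl7c had a stage difference of −1.37 (SE 0.47). Itpr2, an inositol trisphosphate receptor that releases stored calcium, had 90.1 to 166 CPM in GV WT, 115 to 230 in GV CKO, 333, 799 and 600 in ovulated WT, and 263, 316 and 418 in ovulated CKO. It had a stage difference of −1.27 (SE 0.46) and overlapping ovulated groups. Pbld1 had the smallest p on this side, with 8.89 to 11.6 CPM in ovulated WT and 5.05 to 6.08 in ovulated CKO, and a stage difference of −1.33 (SE 0.37, edgeR adjusted p = 0.280).

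The other 8 were Rhebl1 (a small GTPase of the Rheb family), Taf1d (a subunit of the RNA polymerase I selectivity factor), Gps2 (a subunit of the NCoR corepressor complex), Lmo1, Lrrc69, Trim12a, Ggct (an enzyme of glutathione breakdown) and Mrpl47. Taf1d, for example, had 27.5, 34.4 and 38.3 CPM in ovulated WT and 19.4, 16.6 and 23.1 in ovulated CKO, with a stage difference of −1.05 (SE 0.34). Outside the rule, and chosen after its values were seen, Gm20594 had a stage difference of −2.35 (SE 0.47, edgeR adjusted p = 0.221): its CKO over WT difference was 3.08 in GV and 0.74 in ovulated oocytes. WT levels of Gm20594 were 13.2 to 20.5 CPM in GV and 133 to 230 CPM in ovulated libraries.

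The ends of the 3′ UTRs of these genes were read because signals there are known to bear on how long a maternal mRNA lasts. Sequences are 30-base windows of the sense strand from the GENCODE M21 transcripts on GRCm38 (the mm10 assembly), 5′ to 3′. Capitals mark the poly(A) signals AATAAA and ATTAAA and the polyadenylation element motifs TTTTAT and TTTTAAT, which can overlap. In Trim12a the window ends inside a poly(A) signal. The first 5 are Tti2, Ppie and Pradc1 of the higher side, a complex I gene and a ribosomal protein gene, all with no element motif in the last 100 bases (or the whole 3′ UTR where it is shorter). The last 4 are the genes of the lower side that hold one.
Tti2 (chr8:31164663-31164692, plus strand): aaaacaactttcttacatAATAAAgaaaca
Ppie (chr4:123127133-123127162, minus strand): aggtggcttctttgctaaAATAAActgctt
Pradc1 (chr6:85446819-85446848, minus strand): taagcccatactttcagcAATAAAgccaaa
Ndufa5 (chr6:24518674-24518703, minus strand): atgggaATTAAAtgtgcaATTAAAtgctct
Rps13 (chr7:116331518-116331547, minus strand): gctgttgtgtgcacaagcAATAAAatcact
Bcl7c (chr7:127704978-127705007, minus strand): ggctTTTTATaAATAAAgacccttttgtaa
Lmo1 (chr7:109138586-109138615, minus strand): gcgaTTTTATtactggcgtggATTAAActt
Trim12a (chr7:104299915-104299944, minus strand): aaacTTTTATtaatgtgtgacccgaaAATA
Sap30 (chr8:57482777-57482806, minus strand): tTTTTAATgttgttgtcatttttgattcta

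An element motif was found in the last 100 bases for 4 of the 12 genes of the lower side and for 1 of the 11 of the higher side with a 3′ UTR of at least 40 bases. Over all genes tested, 19.6% of these ends (2444 of 12495) hold one on the sense strand. In Bcl7c the motif lies 1 base before the poly(A) signal, and in Tti2 the poly(A) signal stands alone. Among the 256 genes with an unadjusted p below 0.05 and a lower value, 19.8% of the ends hold the motif (46 of 232), close to the share of all genes. Among the 949 on the higher side it was 9.93% (90 of 906). A motif match is a description of letters, not a site in use.

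The number of genes that passed rested on 1 library. Without ovulated CKO replicate 3, 498 of 13521 genes passed the edgeR test (3.68%), 489 higher (3.62%) and 9 lower (0.0666%), among them the 1 gene that passed with 14 libraries. Leaving out any other single library gave between 0 and 2 genes, and DESeq2 on all 14 called 64 (60 higher and 4 lower), 62 of them among the 498. With replicate 3 gone the ovulated CKO group holds 2 libraries, and the median SD within it was 0.278 in place of 0.416. No label sets this library apart, and its total of estimated reads, 26289725, lies within the range of the others.

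The 489 genes give the size of what depends on that library. Their median level was 28.8 CPM in GV WT and 28 CPM in GV CKO. In ovulated WT it was 1.20, 2.01 and 1.86 CPM, and in ovulated CKO it was 9.70, 8.36 and 1.65 CPM. Replicates 1 and 2 stood well above the WT libraries and the median of replicate 3 stood among theirs. The genes were chosen by a fit in which replicates 1 and 2 alone stood for the ovulated CKO, so the height of those 2 is no finding. Replicate 3, which the choice did not use, lay above the ovulated WT range for 117 of the 489 (23.9%), against 16.5% of all genes tested, and within or below it for 372. The ovulated WT libraries were part of the choice, which favours genes with low WT levels, so these shares are no test.

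The rule named 8 genes from this comparison, all higher: Yipf1, Tmem29, Psmb7, Mrpl28, Pin4, Pinlyp, Commd9 and Agpat2. Pin4, a prolyl isomerase gene, had 0.886, 0.963 and 1.11 CPM in ovulated WT and 18.5, 12.7 and 1.04 in ovulated CKO, after 20.1 to 30.4 CPM in GV WT. Agpat2, an acyltransferase gene of phospholipid synthesis, had 0.886, 0.35 and 0.338 CPM in ovulated WT and 5.74, 9.43 and 0.202 in ovulated CKO, after 48.3 to 62.0 CPM in GV WT. Pinlyp had 2.8, 3.21 and 2.06 CPM in ovulated WT and 28.7, 20.8 and 1.72 in ovulated CKO. In each of these 3 genes replicate 3 lay within or below the WT range. All 12 genes of the higher side passed without replicate 3, with values of 1.87 to 4.70, where 3.62% of all genes passed higher. None of the 12 on the lower side did, where 0.0666% of all genes passed lower. In an alternative described further on, the GC trend of each library was taken out as well, again without replicate 3. There 10 of the 12 higher genes passed, against 2.2% of all genes, and 4 of the 12 lower genes, against 0.251%. The choice of the 12 on each side used these same libraries, so these counts describe the genes and test nothing.

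Among gene lists, respiratory complex I, the NADH dehydrogenase of the inner mitochondrial membrane, had the highest median. Of its 37 subunit genes tested, 34 had a stage difference above 0, against 50.2% of all genes, and the median was 1.05. None passed with 14 libraries, 15 of the 37 had an unadjusted p below 0.05 with a higher value (7.21% of all genes), and none with a lower one. Without ovulated CKO replicate 3, 13 of 37 passed (35.1%, against 3.62% of all genes). In that fit replicates 1 and 2 alone stood for the ovulated CKO, and members of a list are not independent replicates. The lists were also chosen with earlier results of these data known. Shares of list members that passed, here and in the lists below, therefore describe the libraries and test nothing. The mean log2 CPM of the list was 5.57 to 5.84 in GV WT, 5.57 to 5.99 in GV CKO, 2.28, 3.47 and 2.98 in ovulated WT, and 5.06, 4.25 and 2.82 in ovulated CKO. Replicates 1 and 2 of the CKO stood nearer to the GV level than any WT library did, and replicate 3 stood inside the WT range.

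Ndufa5, an accessory subunit of complex I, had 33.0 to 39.0 CPM in GV WT, 33.7 to 51.7 in GV CKO, 1.88, 5.75 and 4.06 in ovulated WT, and 46.4, 32.8 and 4.24 in ovulated CKO. Its stage difference was 2.55 (SE 0.73, edgeR adjusted p = 0.280). Replicate 3 lay inside the WT range. The median of the complex I list stayed above 0 under all 25 alternatives, from 0.53 without ovulated CKO replicate 1 to 1.67 without ovulated WT replicate 2.

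The other respiratory genes followed the same order of libraries. Complexes II to V and cytochrome c had a median of 0.66, with 32 of 41 genes above 0, none past the threshold with 14 libraries and 9 of 41 without replicate 3 (22%, against 3.62% of all genes). Cox7c, a small subunit of cytochrome oxidase, had 64.8 to 123 CPM in GV WT, 95.7 to 136 in GV CKO, 1.63, 2.95 and 6.15 in ovulated WT, and 83.5, 57.5 and 3.43 in ovulated CKO. Cox7c had a stage difference of 3.44 (SE 0.91, edgeR adjusted p = 0.280). Uqcr11, a subunit of complex III, had ovulated levels of 2.02, 13.4 and 3.38 CPM in WT and 73.8, 55.6 and 6.46 in CKO, with a stage difference of 2.80 (SE 0.87). The list's median was 0.17 without CKO replicate 1, and above 0 in all 25 alternatives.

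Protein import into mitochondria, through the TOM and TIM translocases, had a median of 0.54 with 24 of 31 genes above 0, and 3 of 32 passed without replicate 3 (9.38%, against 3.62% of all genes). Tomm40, the channel of the outer membrane, had 15.4 to 21.3 CPM in GV WT, 14.8 to 19.1 in GV CKO, 0.0354, 0.875 and 0.439 in ovulated WT, and 5.74, 9.48 and 0.404 in ovulated CKO. For Tomm40 the stage difference was 3.58 (SE 0.99, edgeR adjusted p = 0.280). Tomm6 had ovulated levels of 4.25, 7.56 and 5.47 CPM in WT and 56.5, 29.9 and 7.57 in CKO, with a stage difference of 2.33 (SE 0.66). The import median fell to 0.08 without CKO replicate 1.

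Ribosomal protein genes were less stable in direction. Cytosolic ribosomal proteins had a median of 0.56 with 56 of 81 genes above 0, against 50.2% of all genes, and 5 of 81 passed without replicate 3 (6.17%, against 3.62% of all genes). Their GV effect was above 0 for all 81, against 6985 of 13158 genes tested, with a median of 0.34, and their ovulated effect had a median of 0.92. The mean log2 CPM of the list overlapped between the GV genotypes. It was 5.75, 6.64, 5.98 and 6.54 in GV WT and 6.80, 6.69, 6.30 and 6.59 in GV CKO. Rps13 had 176 to 384 CPM in GV WT, 278 to 493 in GV CKO, 2.52, 10.7 and 7.44 in ovulated WT, and 98.6, 59.3 and 8.18 in ovulated CKO. Between the stages it differed by 2.46 (SE 0.83, edgeR adjusted p = 0.367). The median of the list turned to −0.22 without ovulated CKO replicate 1 and was 0.12 without ovulated WT replicate 1, which had the lowest mean level of this list in any library (2.23 log2 CPM). Mitochondrial ribosomal proteins had a median of 0.27 with 50 of 80 above 0, and it turned to −0.15 without CKO replicate 1.

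**Figure D3:**
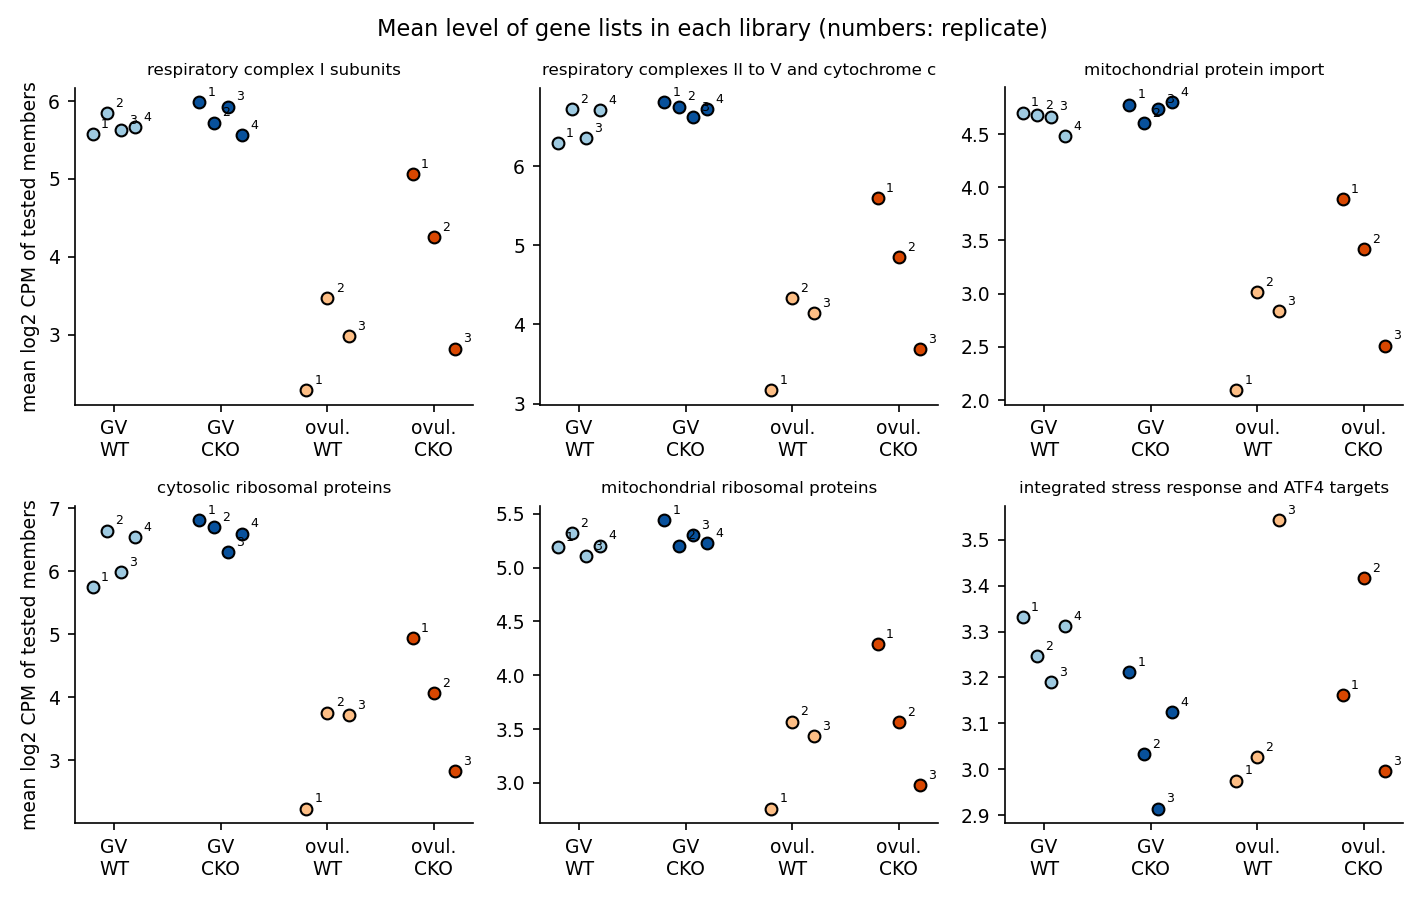
Mean log2 CPM of the tested members of 6 gene lists in each library, in the 4 groups, with the replicate number beside each point. In the respiratory, import and ribosomal lists the 8 GV libraries lie together, ovulated CKO replicate 1 is the highest ovulated library, and ovulated WT replicate 1 and CKO replicate 3 are the 2 lowest.

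Stress pathways that are known to respond to mitochondrial protein damage had medians near those of all genes. The list of mitochondrial proteases, chaperones and unfolded protein response genes had a median of 0.17 with 18 of 32 above 0, none passed with or without replicate 3, and its sign turned in 4 of 25 alternatives. Its member of smallest p on the higher side was Pmpcb, a subunit of the mitochondrial processing peptidase, with a stage difference of 1.55 (SE 0.67, edgeR adjusted p = 0.497). Ubl5, a ubiquitin-like gene of that response in worms, had −0.92 (SE 0.40, edgeR adjusted p = 0.497). Genes of the integrated stress response, with the targets of ATF4, had a median of −0.12 with 15 of 34 above 0, its sign turned in 8 of 25 alternatives, and 1 of 34 passed without replicate 3 (2.94%, against 3.62% of all genes). Its members included Chac1, a glutathione-degrading ATF4 target, with 0, 0.0583 and 0.507 CPM in ovulated WT against 0.961, 1.18 and 0.774 in ovulated CKO, groups that did not overlap. The stage difference of Chac1 was 2.46 (SE 0.95, edgeR adjusted p = 0.438). The member that passed without replicate 3 was Aars, a tRNA synthetase gene, with 1.70 in the 14 libraries (SE 0.54, edgeR adjusted p = 0.321) and 2.02 without replicate 3.

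Heme and iron-sulfur cluster synthesis, the first of which CLPX is known to act on, had a median of 0.27 with 15 of 24 genes above 0 and none past the threshold. An unadjusted p below 0.05 was found for 4 of the 24, all higher, against 7.21% of all genes higher and 1.95% lower. The median's sign turned in 2 of 25 alternatives. With each library's GC trend taken out the median was −0.06, against −0.09 for all genes. Fech, the ferrochelatase that inserts iron to form heme, had 15.0 to 27.4 CPM in GV WT, 13.0 to 19.9 in GV CKO, 2.02, 2.04 and 1.86 in ovulated WT, and 6.73, 8.22 and 1.65 in ovulated CKO. Its replicate 3 lay below the WT libraries, and the stage difference was 1.79 (SE 0.56, edgeR adjusted p = 0.319). Without replicate 3 Fech was the 1 member of 25 that passed (4%, against 3.62% of all genes), with 2.22 (edgeR adjusted p = 0.00589). Alas1, the first enzyme of the pathway, lay outside the rule and had overlapping groups at both stages, with a stage difference of 0.48 (SE 0.43, edgeR adjusted p = 0.822).

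Oocyte genes were divided. The list of oocyte transcription factors, zona pellucida and secreted factors had a median of −0.29 with 14 of 31 above 0, and 4 of the 31 had an unadjusted p below 0.05 with a higher value, against 7.21% of all genes. The median turned to 0.07 without GV CKO replicate 4. Figla, a transcription factor of the zona genes, had 26.7 to 29.1 CPM in GV WT, 27.6 to 34.5 in GV CKO, 0.638, 1.6 and 0.777 in ovulated WT, and 13.0, 10.1 and 0.505 in ovulated CKO. Figla had a stage difference of 2.81 (SE 0.85, edgeR adjusted p = 0.311). Zp3, the zona gene whose promoter drives the Cre, had ovulated levels of 104, 109 and 118 CPM in WT and 424, 451 and 136 in CKO. Every ovulated CKO library was above WT for Zp3, with a stage difference of 1.41 (SE 0.53, edgeR adjusted p = 0.419). Zp2 had 1.46 (SE 0.64), and its replicate 3 lay inside the WT range. Dazl, an RNA-binding translational regulator, lay on the other side with −1.01 (SE 0.48, edgeR adjusted p = 0.555).

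Fertilisation and egg calcium signalling had a median of 0.27 with 14 of 19 above 0, a sign kept in all 25 alternatives, and 3 of 19 passed without replicate 3 (15.8%, against 3.62% of all genes). Its mean level was 7.36 to 7.53 log2 CPM in GV WT, 7.35 to 7.76 in GV CKO, 5.73 to 5.86 in ovulated WT, and 6.64, 6.69 and 5.88 in ovulated CKO. Here replicate 3 was again the lowest CKO library but lay just above the WT range. Calm2, a calmodulin gene, had ovulated levels of 61.7, 106 and 40.8 CPM in WT and 597, 274 and 55.9 in CKO, with a stage difference of 1.98 (SE 0.72, edgeR adjusted p = 0.405).

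Among genes of the meiotic cell cycle, with a median of 0.00263 over 46 genes, Aurkb and Cdc25b had the smallest p-values. Aurkb, the kinase of the chromosomal passenger complex, had 22.6 to 33.4 CPM in GV WT, 21.1 to 27.7 in GV CKO, 6.02, 5.95 and 3.68 in ovulated WT, and 19.3, 13.9 and 7.5 in ovulated CKO. All ovulated CKO libraries lay above WT. Aurkb had a stage difference of 1.64 (SE 0.42, edgeR adjusted p = 0.280). Cdc25b, the phosphatase that activates CDK1 at meiotic resumption, had 6.2, 10.8 and 7.84 CPM in ovulated WT and 35.9, 39.5 and 8.28 in ovulated CKO, with a stage difference of 1.84 (SE 0.54). Proteasome subunits had a median of −0.03 with 18 of 38 above 0. Psmb7 (3.99) and Psmb4 (2.29, SE 0.71) had the smallest p-values of that list.

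The other 12 lists had medians between −0.61 (5 theca, stromal, endothelial and blood markers) and 0.19 (metallothioneins and zinc handling). The first was −0.03 without ovulated CKO replicate 1, and the second turned to −0.06 without ovulated WT replicate 1. Granulosa and cumulus markers had a median of −0.95 over 15 genes. That value rested on ovulated WT replicate 3, whose mean level over these markers was 2.16 log2 CPM against −0.02 and −0.03 in WT replicates 1 and 2 and −0.03 to 0.69 in the ovulated CKO. Without that library the median was 0.12. Their summed level ran differently, with 1130, 436 and 778 CPM in ovulated WT replicates 1 to 3, since it is set by the abundant members Serpine2 (362 to 987 CPM in ovulated libraries) and Cyp19a1 (42.8 to 105 CPM). Members that peaked in WT replicate 3 were low ones such as Gja1 (6.29 CPM) and Hsd3b1 (12.0 CPM), both at 0 in WT replicates 1 and 2. Fshr and Amhr2 were at or below 0.169 CPM in all ovulated libraries, while Nr5a2 had 10.1 to 17.2 CPM there. From the level of a library, fewer cells of a type and less RNA per cell cannot be told apart.

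**Figure D4:**
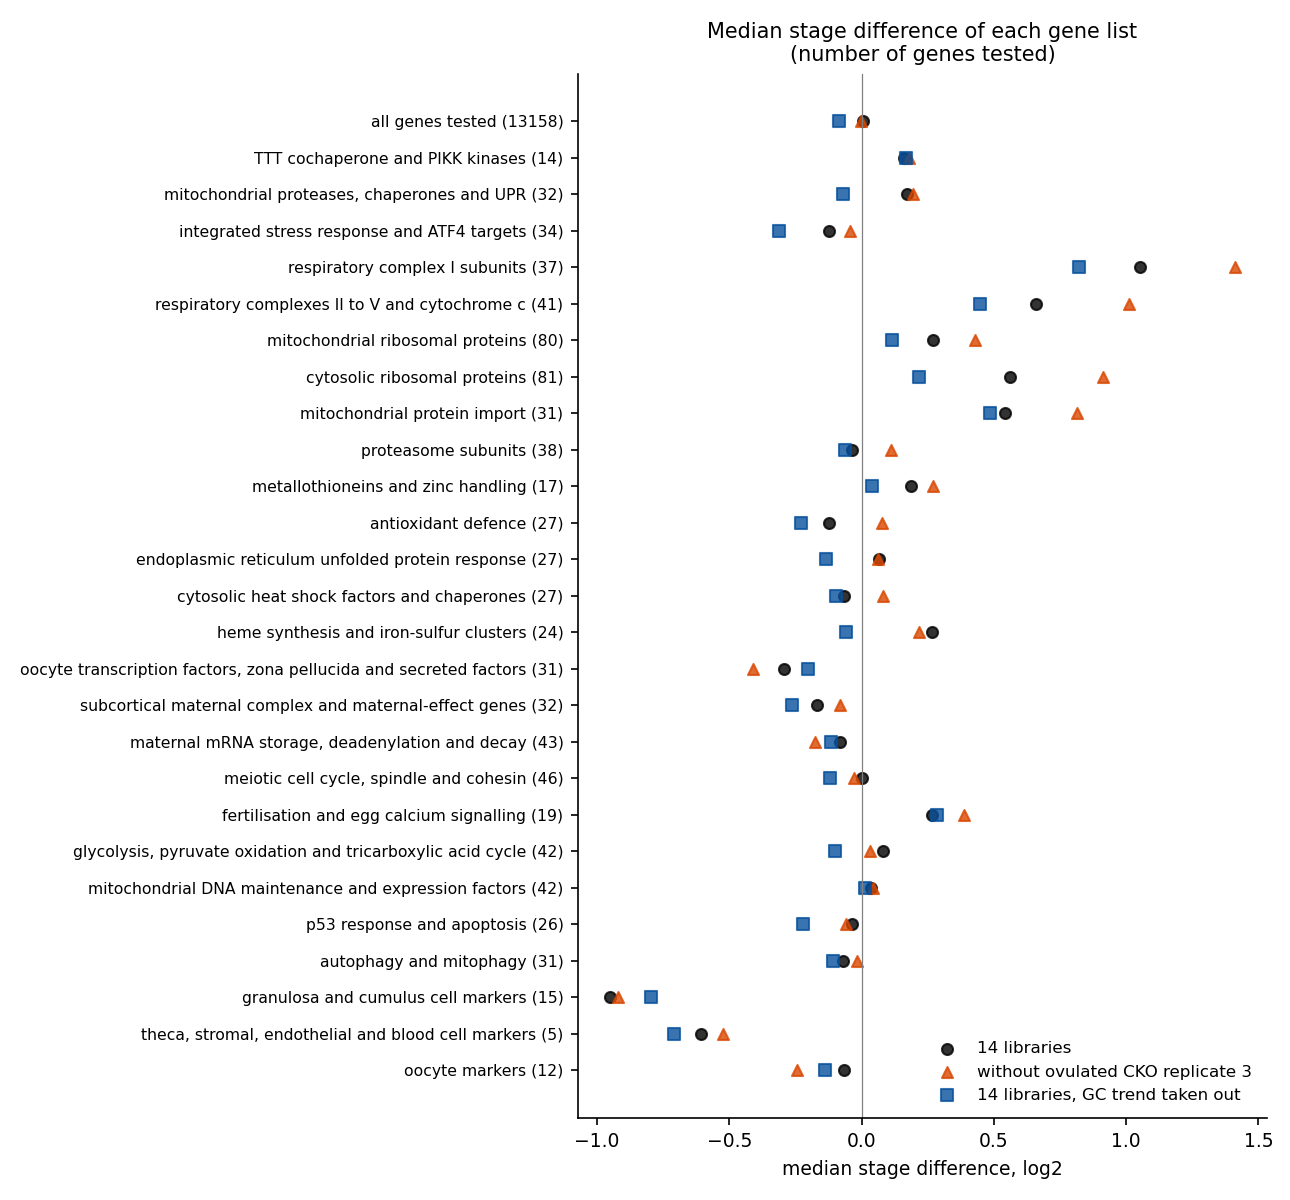
Median stage difference (log2, x axis) of each gene list, with the number of genes tested in parentheses: circles, all 14 libraries; triangles, without ovulated CKO replicate 3; squares, 14 libraries with each library's trend on GC content taken out. Complex I (1.05), complexes II to V (0.66), cytosolic ribosomal proteins (0.56) and import (0.54) have the highest medians in the 14 libraries and keep values above 0 in both alternatives.

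The stage difference moved with the base composition of the transcript. Across the 12787 genes with a transcript in GENCODE M21, the Spearman rho with GC content was −0.282 for the GV effect, 0.159 for the ovulated effect and 0.297 for the stage difference. In 5 equal bins of genes from low to high GC content, the median stage difference was −0.24, −0.11, 0.03, 0.22 and 0.36. Length had a weaker rank relation (rho −0.0956). In 5 bins from the shortest to the longest transcripts, the median stage difference was 0.13, 0.01, 0.03, 0.02 and −0.07. Median transcript length was 908 bases in complex I, 838 in complexes II to V, 860 in cytosolic ribosomal proteins and 1776 in import. For all genes tested it was 2957 bases. GC trends also differed between libraries of 1 group: the rho of a library's deviation from the gene mean with GC ran from −0.037 to 0.363 in GV WT, from −0.386 to 0.104 in GV CKO, from −0.327 to 0.172 in ovulated WT and from −0.261 to 0.367 in ovulated CKO. Ovulated WT replicate 1 and ovulated CKO replicate 3 had the lowest values of their groups.

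With each library's GC trend taken out, an alternative chosen after the data were seen, 1 of 12787 genes passed (0.00782%), and Tti2 was that gene. Without replicate 3 as well, 322 of 13134 passed (2.45%), 289 higher and 33 lower, and 291 of them were among the 498. Complex I had a median of 0.82 with the trend out, complexes II to V 0.45, import 0.48 and cytosolic ribosomal proteins 0.22, against −0.09 for all genes. Of the 489 genes that passed on the higher side without replicate 3, 481 had a transcript in the annotation. These had a median GC content of 53.7%, a median transcript length of 1726 bases and a median 3′ UTR of 409 bases. All genes tested had 49.5%, 2957 bases and 958 bases. The polyadenylation element motif stood in 9.5% of the ends of the 489 (44 of 463), against 19.6% of all. The part of base composition and length in the stage difference was not tested.

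**Figure D5:**
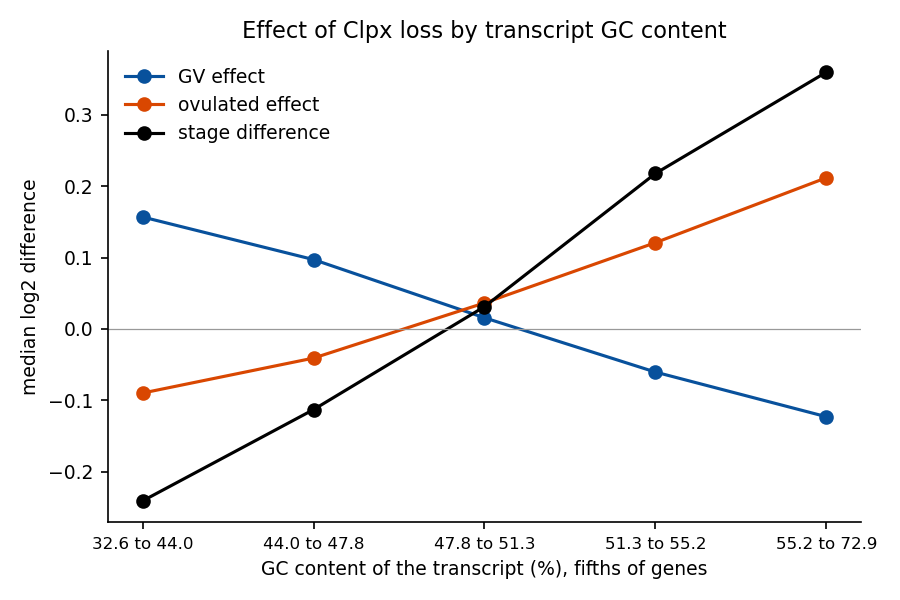
Median log2 difference over genes in 5 equal bins of transcript GC content (x axis, % GC), for CKO over WT in GV oocytes, in ovulated oocytes, and for the stage difference. The GV line falls and the ovulated line rises with GC content, and the stage difference runs from −0.24 to 0.36.

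The number of genes with at least 1 count gave a table-wide view of the same contrast. GV WT libraries held 15159 ± 155 genes (SD, n = 4), GV CKO 14893 ± 240 (SD, n = 4), ovulated WT 14091 ± 629 (SD, n = 3) and ovulated CKO 14258 ± 271 (SD, n = 3). The CKO mean was below WT in GV and above WT in ovulated oocytes, a difference of differences of 433 genes with p = 0.296 in an exact permutation test within stages (two-sided, 1400 arrangements). With libraries thinned to the smallest total it was 424 genes (exact p = 0.320), and with at least 5 counts 496 genes (exact p = 0.2). Ovulated WT libraries held 13614, 13855 and 14804 genes, replicate 3 being the highest. Without that replicate the difference was 790 genes (exact p = 0.020).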

How the data were processed

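The 14 libraries were SMART-Seq2 cDNA of oocytes lysed in buffer, per the labels' protocols. For each stage the authors deposited read counts and FPKM. The deposited counts are expected counts: in every library 14.45% to 16.32% of them were not whole. FPKM values were scaled by the authors to length and depth, and served as an alternative. The build is mm10, per the submitters' processing notes. The aligner, counter and annotation are not given in the sources used here.

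Tables were joined on gene ID. The 16417 shared genes included 241 with another symbol in each table, and a per-gene shift between tables cancels in the contrast. Expected counts were rounded and fitted with edgeR 4.0.16 (R 4.3.3, limma 3.58.1, DESeq2 1.42.0): 4 groups, TMM scaling, genes kept by filterByExpr (minimum count 10), the robust quasi-likelihood test, and Benjamini-Hochberg adjustment over all genes tested, with a threshold of 0.05. P-values printed for single genes come from this fit unless another tool is named. CPM is per 1e+06 scaled counts. Replicate columns were checked for copies (chi-square per degree of freedom at least 61.7). The fit was also run on counts simulated from its own model, with no library that deviates from its group. That run therefore does not bear on the effect of ovulated CKO replicate 3. Intervals cover counting error only where said, since PCR copies are not independent molecules. The smallest total, 25086506, sets the depth.

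Named genes were Clpx, Clpp, Mt1 and Mt2, genes past the threshold, the 12 of smallest p in each direction with a mean of at least 10 CPM, 2 per list, and up to 8 per direction where a left-out library called more than 20 genes; predicted genes were left out, and some genes that the rule names are not reported here. The 26 lists held 886 genes, 835 of them tested. Members, lists and rules were chosen with earlier results of these data known, and the GC alternatives after seeing these results. RefSeq (GRCm38.p6) gave gene positions for 16372 genes, and GENCODE M21 gave transcripts.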

Additional observations from a re-analysis of the deposited data

Results flagged for a closer look

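The effect of Clpx loss on Tti2 differed between the stages by 6.41 on the log2 scale in the edgeR test of the difference itself, the 1 gene past the threshold of 13158. Its values by library, and the alternatives in which it did not pass, are given with the results.

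In groups of 4 libraries, 1 library lay far from the other 3 for 10 named genes, of 158 sets of 4 libraries looked at among the genes reported and the number of genes with a count (6.33%); chance flags about 1 in 20 groups. The values are the gap to the nearest library over the whole range of the group. In GV WT these were Clpx (0.978), Slco4a1 (0.962), Hsf1 (0.876), Tmem29 (0.870), Zp3 (0.863), Urod (0.859) and Hsd17b1 (0.847). Clpx, Slco4a1, Hsf1 and Urod had their highest GV WT level in replicate 1, Tmem29 in replicate 3, Zp3 in replicate 4 and Hsd17b1 in replicate 2. In GV CKO these were Taf1d (0.927), Slc30a2 (0.881) and Cacna1h (0.835). Taf1d stood low in GV CKO replicate 4, where Slc30a2 stood high, and Cacna1h stood high in replicate 1.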

How the results depend on the processing

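The number of genes past the threshold, 1 in the edgeR fit of 14 libraries, was also 1 with RLE scaling, library totals, no filter, a minimum count of 50 and the GC trend taken out. It was 64 in DESeq2 (1398 genes at an unadjusted p below 0.05) and 0 in limma-voom (948), limma-voom with group weights (685) and limma on log2 FPKM (795). With the GC trend taken out and without ovulated CKO replicate 3 it was 322. Leaving out 1 library each time gave from 0 to 498. The replicate number as a block gave 0 calls in edgeR (1080 genes at an unadjusted p below 0.05). The labels state no pairing. Deviations of same-numbered libraries had r of −0.304, 0.221, 0.419 and 0.677 for pairs 1 to 4 in GV oocytes. In ovulated oocytes r was −0.41, 0.4 and −0.0541 for pairs 1 to 3. Libraries of unlike number had r of −0.679 to 0.401 in GV and −0.438 to 0.534 in ovulated oocytes. So few values cannot decide whether the numbers pair the samples.

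The stage difference in genes with a count ran from 195 to 790 with 1 library left out, and the value without ovulated WT replicate 3, 789.67, passed.

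Of 2015 values of named genes under alternatives, 1883 kept direction and side of the threshold, 95 now passed, 15 no longer did and 22 turned sign, in 4 genes. Most named genes were chosen by small p-values in these same libraries, which favours a kept sign. Only Tti2 passed in the main fit, which favours a kept side of the threshold. These counts are therefore no test of robustness. Clpx turned to 0.26 with library totals, 0.70 in log2 FPKM, 0.00315 with a minimum count of 50, 0.044 with the GC trend out and 0.30 when replicate 3 was also left out, and ran from −0.30 to 0.21 with 1 library left out. Mt1 turned to 0.10 with library totals, 0.17 in log2 FPKM, 0.18 in limma-voom with and without weights and 0.12 with the block, and ran from −0.63 to 1.48. Hsf1 turned to −0.084 with the GC trend out and without replicate 3. Hsd17b1 ran from −5.75 to 0.12, the last without ovulated WT replicate 3. The causes were not tested. The 3 ovulated libraries of each genotype limit the precision, with a median SE of the stage difference of 0.529.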
